A study of Mus musculus with 12 samples.

Results

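The transcript changes described here are those that mouse embryos showed 3 h after irradiation under both p53 genotype labels of a study of p53-dependent cell-cycle arrest. Of the 12 RNA-seq libraries of the study, 8 were compared. The 4 libraries at 3 h came from embryos at embryonic day 9.5 that received 30 Gy of X-rays at 5 Gy per minute in pregnant mice, 2 labelled p53 -/- (below, labelled knockout) and 2 labelled p53 +/+ (labelled wild type). The 4 untreated libraries came from embryos of the same day without irradiation, 2 per label, and the libraries of each group are numbered 1 and 2. The labels do not describe the p53 -/- allele or the strain. The 4 libraries taken at 1 h are used as a description and in an alternative fit of all 12 libraries. A gene was kept when its change at 3 h passed the test over both labels and had the same sign in each of the 4 matched pairs of equal label and number. By this rule 52 of 15131 genes tested were kept, and all 52 were lower at 3 h.

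Cells entering mitosis switch on a set of genes for the kinases, motors and spindle proteins that condense, align and separate chromosomes, and they clear many of these products when mitosis ends. DNA breaks halt this entry through the checkpoint kinases ATM and ATR, which act without p53, while p53 adds a second arm through its target p21. Many mitotic genes are switched off by the DREAM complex at a promoter element called the CHR, often with CCAAT boxes bound by NF-Y nearby.

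Values are TPM, transcript abundances scaled to the same sum within each library, and changes are given as differences of log2(TPM + 1), in which shifts of low genes come out too small. In each list of library values the order is labelled knockout 1 and 2, then labelled wild type 1 and 2. TPM keep no read depth, so no counting error can be given. The labels do not say whether libraries come from separate embryos, so a p value here rests on the spread among these 8 libraries, part of which may be technical. Between 13724 and 14357 genes reached 1 TPM in a library. On the first principal component, which held 46.4% of the variance of the 8 libraries, the 3 h libraries labelled knockout stood at -61.3 and -59.7 and the other 6 between 16.7 and 23.0. The second component, with 27.2%, separated the numbers 1 and 2. Trp53, the gene for p53, stood at 242, 219.8, 93.7 and 68.0 TPM at 3 h, against 265, 79.1, 114 and 211 TPM in untreated libraries. Both 3 h libraries labelled knockout therefore held more of it than both labelled wild type, which goes against the labels, and the labels are used below only as names. Xist, expressed from the inactive X chromosome, stood at 108, 96.9, 135 and 0.01 TPM at 3 h, against 0, 51.2, 0.02 and 53 TPM in untreated libraries, so 3 libraries at 3 h and 2 untreated libraries held it. Labelled knockout 1 and wild type 1 held Xist only at 3 h, and wild type 2 only untreated. Pairs of equal label and number are thus not all matched in Xist, and the labels do not say what the number marks. Numbers 1 and 2 of a group also differed in holding Xist, except at 3 h under the knockout label.

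The comparison asks which changes occur both with and without a response of p53 target genes. Cdkn1a, the gene for p21, stood at 499, 444, 6.96 and 6.18 TPM at 3 h, against 6.88, 5.38, 5.91 and 6.60 TPM in untreated libraries. Ccng1, a p53 target that encodes cyclin G1, stood at 563, 703, 10.6 and 14.0 TPM at 3 h, against 18.8, 12.3, 10.1 and 29.2 TPM in untreated libraries. Both genes were high only in the 3 h libraries labelled knockout. Of a list of 43 p53 targets, all of which passed the filter, limma called 0 in the pooled comparison (24 higher at an unadjusted p under 0.05). That comparison counts a label difference as error, so genes that respond under a single label are unlikely to pass it. Of the 43, 36 differed in response between the labels, all more positive under the knockout label, against 8.22% of all genes tested. The list had a median log2 change of 2.32 under the knockout label and 0.04 under the wild type label. In all 4 pairs 12 of the 43 targets were higher, against 11.3% of all genes tested, so these were also higher under the wild type label. In 6 targets every 3 h library lay above every untreated one, against 3.15% of all genes. The 52 genes thus fell both where the median of the p53 target list rose and where it stayed near 0.

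**Figure D1:**
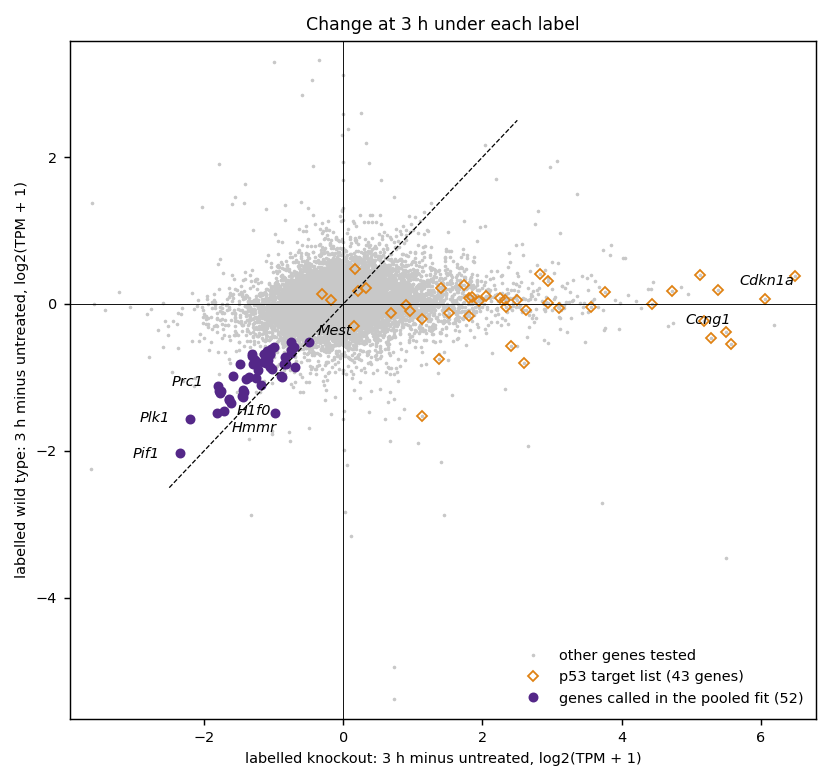
Log2 change at 3 h under the knockout label (x axis) and under the wild type label (y axis), 1 point per gene tested, as means of 2 libraries minus means of 2 libraries in log2(TPM + 1); the dashed line marks equal change. The 52 genes called over both labels (filled) lie below 0 on both axes, while the 43 p53 targets (open diamonds) spread along the x axis with a median of 2.32 and have a median of 0.04 on the y axis.

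The pooled comparison asked which genes moved at 3 h whatever the label. limma with time, label and number as terms called 52 genes lower and 0 higher at a Benjamini-Hochberg adjusted p under 0.05, which is 0.344% of the genes tested in either direction. At an unadjusted p under 0.05 there were 2039 lower and 1465 higher genes. The 52 had a median log2 change of -1.01 (range -2.19 to -0.50), against -0.05 over all genes, and 28 of them fell at least 2-fold. Their mean levels had a median of 31.4 TPM at 3 h and 63.1 TPM in untreated libraries. In 45 of the 52 every 3 h library lay below every untreated library, a count that the choice of genes by the same values largely fixes (643 of all genes tested, 4.25%). Without the number as a replicate block the count was 16, and with each pair of equal label and number as the block it was 15, of which 14 were among the 52. Without any 1 library the count fell: to 14 and 7 without the 3 h libraries labelled knockout 1 and 2, to 23 and 13 without those labelled wild type, to 7 and 6 without the untreated libraries labelled knockout, and to 19 and 16 without those labelled wild type. Aurka, H1f0, Cks2, Pif1, Plk1 and Ccnb1 kept their calls without any single library. Over 1144 values of the 52 genes in the main and the alternative fits the sign changed 0 times. The choice of genes by equal sign in all 4 pairs of the same libraries largely fixes this. Without both untreated libraries numbered 2, a setting chosen after seeing the data, the count was 0 at a smallest adjusted p of 0.242, with all 52 still lower at an unadjusted p under 0.05 and a median of -1.04.

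Genes of mitosis made up most of the 52. Lists of mitotic kinases and cyclins, mitotic kinesins, spindle and cytokinesis proteins, regulators of the anaphase-promoting complex (APC/C), centromere proteins and condensins hold 114 genes together, all tested. Of these 114, 30 fell (26.3%, beside 0.344% of all genes) and 0 rose, with a median log2 change of -0.55. In 79 of the 114 all 4 pairs were lower, against 16.7% of all genes tested, and in 2 all 4 pairs were higher, against 11.3%. The lists were chosen with earlier results of these data known, so these shares are a description and not independent support. In these bulk samples, fewer cells in mitosis and less RNA per mitotic cell cannot be told apart.

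Promoter sequences are shown for genes that fell, because mitotic genes are known to be switched off through promoter elements. They are RefSeq windows of mouse build GRCm38.p6 (the submitters name GRCm39), from 250 bases before to 50 bases after the annotated start, using the first window listed per gene. A window was found for 42 of the 52 genes. Each was searched on both strands for TTTGAA, the common core of the CHR (TTCAAA on the other strand), and for CCAAT, the core of the NF-Y box (ATTGG on the other strand). TTTGAA was present in 24 of the 42 windows (57.1%), against 18.1% of the windows of 27025 genes. CCAAT was present in 29 of the 42 (69.0%), against 37.9% of all windows. Both stood in 22 of the 42 (52.4%), against 7.12% of all windows. The 27025 genes include genes that did not pass the filter on TPM, and most of the 52 are genes of mitosis. The shares are therefore a description, and a tie of the motifs to the fall was not tested. The windows of Fv1 and Miip overlap by 241 bases and hold the same TTTGAA and CCAAT, which share 1 base, so these sites are counted for both genes. Without the Fv1 window the counts were 23, 28 and 21 of 41. A match is a description of letters and was not tested for binding here. The stretches below hold the 120 bases before the start, 5′ to 3′ on the gene's strand, with matches to both motifs in capitals, also where the stretch cuts a match. Aurka, Plk1 and Ccnb1 are the kinase and cyclin genes of mitosis described first below, and the next 5 hold both motifs upstream of the start. H1f0 is shown as a gene of the same fall without a match.
Aurka (chr2:172370571-172370690, minus strand): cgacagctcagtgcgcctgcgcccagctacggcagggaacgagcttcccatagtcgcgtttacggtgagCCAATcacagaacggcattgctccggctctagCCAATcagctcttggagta
Plk1 (chr7:122159315-122159434, plus strand): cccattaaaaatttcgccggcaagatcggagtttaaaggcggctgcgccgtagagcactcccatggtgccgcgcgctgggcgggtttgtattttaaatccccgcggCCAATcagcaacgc
Ccnb1 (chr13:100786487-100786606, minus strand): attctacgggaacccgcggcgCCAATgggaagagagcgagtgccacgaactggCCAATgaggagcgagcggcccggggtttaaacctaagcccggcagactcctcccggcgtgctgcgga
Ube2c (chr2:164769809-164769928, plus strand): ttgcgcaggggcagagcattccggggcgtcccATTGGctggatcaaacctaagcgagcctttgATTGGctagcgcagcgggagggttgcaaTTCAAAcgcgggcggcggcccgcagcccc
Ckap2l (chr2:129297213-129297332, minus strand): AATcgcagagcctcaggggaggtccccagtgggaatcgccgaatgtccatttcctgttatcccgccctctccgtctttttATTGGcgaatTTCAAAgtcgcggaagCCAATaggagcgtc
Kpna2 (chr11:106999526-106999645, minus strand): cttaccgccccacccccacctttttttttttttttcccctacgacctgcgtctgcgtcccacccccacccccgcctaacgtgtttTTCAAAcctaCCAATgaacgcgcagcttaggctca
Kif11 (chr19:37376262-37376381, plus strand): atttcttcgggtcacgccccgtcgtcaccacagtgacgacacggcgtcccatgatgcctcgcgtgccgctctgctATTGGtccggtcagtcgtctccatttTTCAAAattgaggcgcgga
Depdc1a (chr3:159495313-159495432, plus strand): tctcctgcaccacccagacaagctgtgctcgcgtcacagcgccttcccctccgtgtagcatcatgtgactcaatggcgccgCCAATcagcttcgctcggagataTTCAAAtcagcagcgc
H1f0 (chr15:79028092-79028211, plus strand): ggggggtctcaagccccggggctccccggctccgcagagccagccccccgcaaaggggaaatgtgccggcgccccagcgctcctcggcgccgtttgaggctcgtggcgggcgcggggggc
In Aurka and Plk1 TTTGAA lies just after the start, at positions 33 and 31, outside the stretch shown, and Ccnb1 had CCAAT at positions -99 and -67 with no TTTGAA in its window. In Ube2c, Ckap2l, Kif11 and Depdc1a a CCAAT stands upstream of TTTGAA, and in Kpna2 TTTGAA stands upstream of CCAAT. Over the 42 windows there were 29 TTTGAA matches at a median position of -19, 18 of them upstream of the start. The 64 CCAAT matches had a median position of -59, and 58 were upstream.

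**Figure D2:**
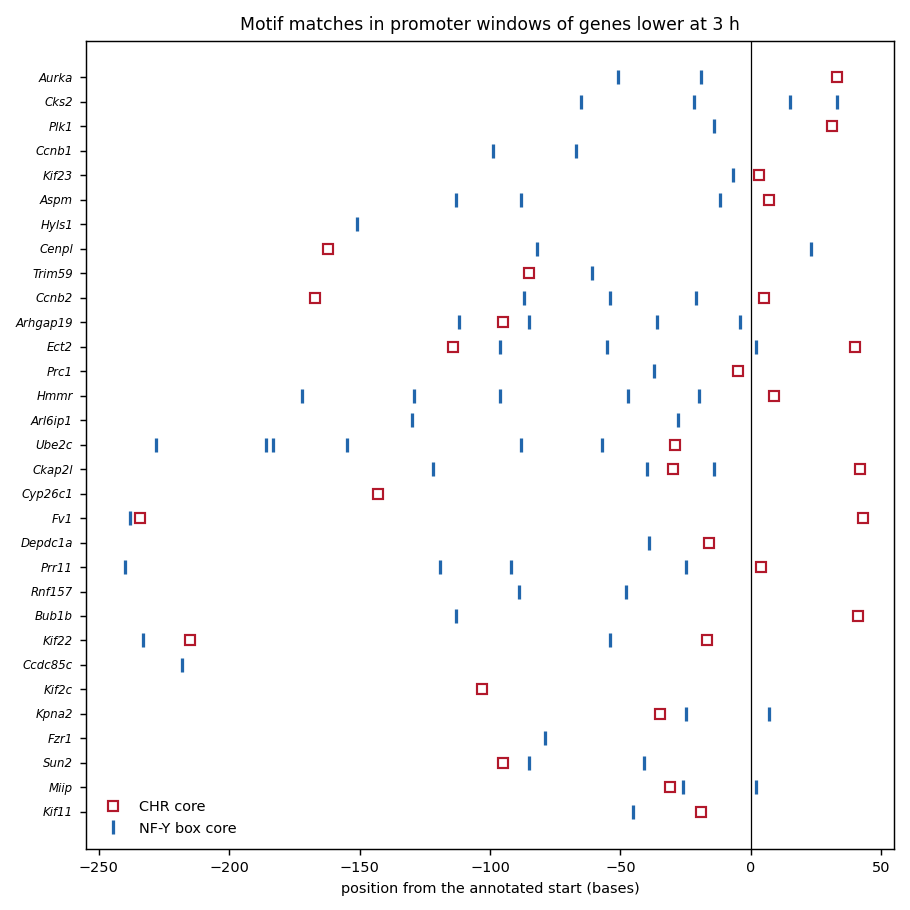
Positions of the CHR core (open squares) and of the NF-Y box core (bars) in the promoter windows of the 31 genes with at least 1 match, in bases from the annotated start (line at 0), genes in order of p. The NF-Y box matches lie mostly upstream of the start, at a median of -59, and the CHR core matches nearer to it, at a median of -19.

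Among the mitotic kinases and cyclins, 8 of 22 fell, 17 were lower in all 4 pairs, and the median log2 change was -0.54. Aurka (ENSMUSG00000027496), Aurora kinase A of the centrosome and spindle, stood at 33.1, 35, 42.4 and 46.1 TPM at 3 h, against 104, 109, 109 and 119 TPM in untreated libraries. Every 3 h library was below every untreated one, and the change was -1.48 (SE 0.0870, limma adjusted p = 0.00494). Plk1 (ENSMUSG00000030867), polo-like kinase 1, which drives entry into mitosis, stood at 36.2, 40.8, 56.7 and 62.3 TPM at 3 h, against 171, 190.04, 165 and 191 TPM in untreated libraries. Its change was -1.88 (SE 0.137, adjusted p = 0.00526), with the 3 h libraries labelled knockout lower than those labelled wild type. Ccnb1, cyclin B1, the partner of CDK1 in mitosis, stood at 39.0, 80.2, 49.0 and 88.6 TPM at 3 h, against 85.5, 191, 107 and 189 TPM in untreated libraries. The groups overlap, with libraries numbered 2 higher at both times, while each of the 4 pairs was lower (-1.14, SE 0.0848, adjusted p = 0.00528).

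Cks2, a small subunit that binds CDK1, followed the same split by number. It stood at 46.6, 88.6, 67.5 and 112 TPM at 3 h, against 135, 230.3, 155 and 251 TPM in untreated libraries (-1.30, SE 0.0882, adjusted p = 0.00501). Ccnb2, cyclin B2, stood at 55.2, 63.9, 51.6 and 59.8 TPM at 3 h, against 90.8, 104, 96.2 and 107 TPM in untreated libraries and changed by -0.70 under the knockout label and -0.86 under the wild type label (label difference 0.16, adjusted p = 0.238). Cdc25c, the phosphatase that activates CDK1, stood at 10.7, 12.6, 12.0 and 13.4 TPM at 3 h, against 22.2, 22.6, 26.7 and 25.4 TPM in untreated libraries (-0.94, adjusted p = 0.0139). Bub1b, a kinase-like protein of the spindle checkpoint, changed by -0.90, and Bora, the activator that lets Aurora A switch on PLK1, by -0.87 (adjusted p = 0.0453). Aurkb, Aurora kinase B, named here after its values were seen, did not pass, at 50.1, 78.2, 57.0 and 78.5 TPM at 3 h and 51.9, 87.2, 58.5 and 92.3 TPM in untreated libraries (-0.12, adjusted p = 0.389).

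**Figure D3:**
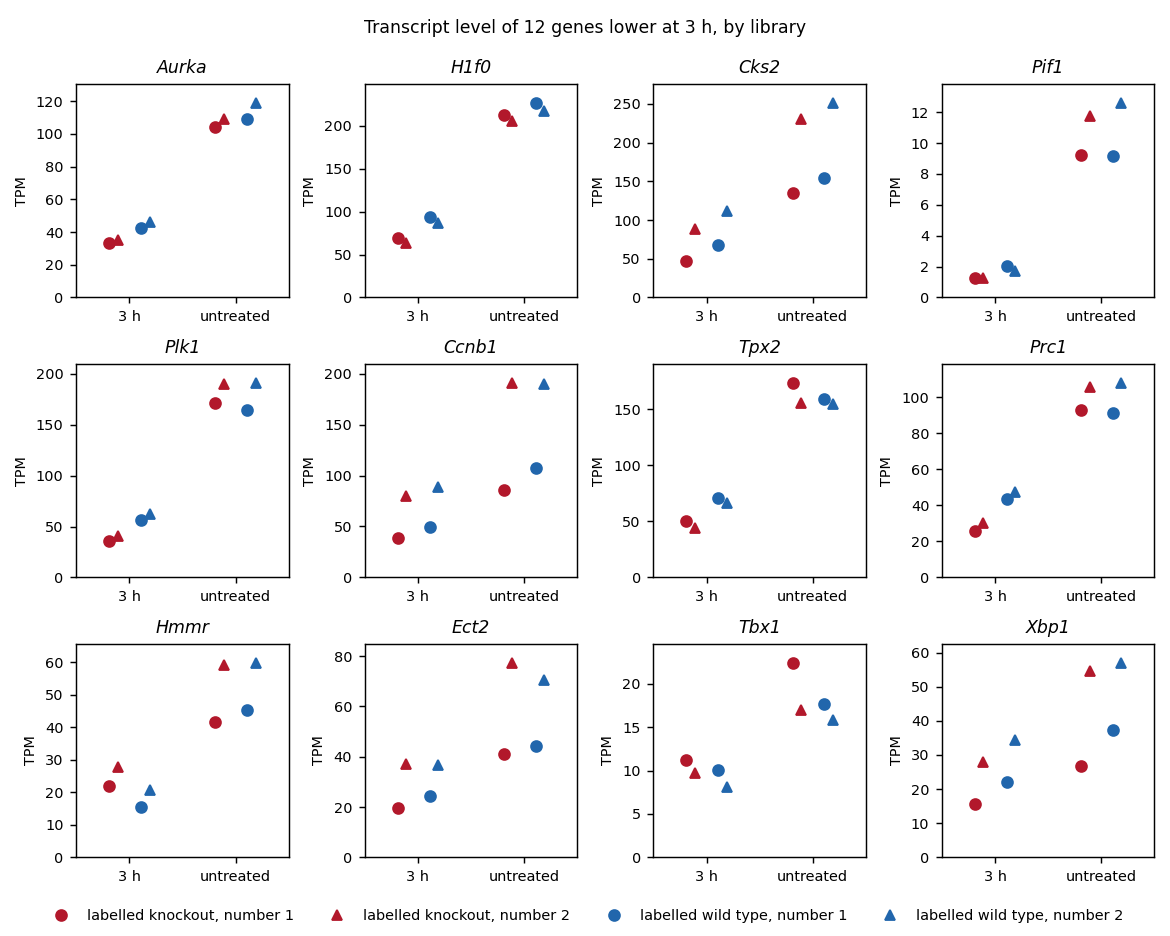
TPM of 12 genes that fell, 1 point per library, with the 3 h libraries left of the untreated ones, circles for number 1 and triangles for number 2, red for the knockout label and blue for the wild type label. The 3 h points lie below the untreated points in 10 of the panels, while in Ccnb1 and Xbp1 the groups overlap and libraries numbered 2 lie above those numbered 1 at both times.

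Kinesins are the motors that move chromosomes and slide the microtubules of the spindle. Of 13 mitotic kinesins 6 fell and 11 were lower in all 4 pairs, with a median log2 change of -0.80. Kif23, a subunit of the centralspindlin complex of cytokinesis, stood at 61.0, 49.6, 66.1 and 60.2 TPM at 3 h, against 149, 117, 133 and 122 TPM in untreated libraries (-1.13, SE 0.0885, adjusted p = 0.00647). Kif20a, a motor of the spindle midzone, stood at 68.8, 64.5, 82.0 and 83.9 TPM at 3 h, against 151, 135, 144 and 139.7 TPM in untreated libraries (-0.93). Kif2c, which takes microtubules apart at centromeres, stood at 26.0, 24.4, 40.8 and 41.9 TPM at 3 h, against 74.8, 70.1, 78.1 and 68.8 TPM in untreated libraries (-1.15). In all 3 genes the groups did not overlap. Kif22 (-0.87), Kif18a (-0.97) and Kif11 (-0.79, adjusted p = 0.0461) also fell, and Kif11, the motor that pushes the spindle poles apart, was the gene nearest to the threshold on its inner side. Kif20b lay just outside it (-0.93, adjusted p = 0.0534). Kif18b, named after its values were seen, had changes of opposite sign, at 71.4, 75.3, 17.7 and 16.2 TPM at 3 h and 26.8, 28.8, 26.4 and 29.2 TPM in untreated libraries (label difference 2.05, adjusted p = 0.000636).

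Spindle and cytokinesis proteins held the most calls, 12 of 30, with 23 lower in all 4 pairs and a median log2 change of -0.70. Tpx2, which activates Aurora A on spindle microtubules, stood at 50, 44.3, 70.5 and 66.3 TPM at 3 h, against 173, 155, 159 and 155 TPM in untreated libraries (-1.48, SE 0.130, adjusted p = 0.00839). Prc1, which bundles microtubules of the central spindle, stood at 25.6, 30.3, 43.3 and 47.2 TPM at 3 h, against 92.9, 105, 91.5 and 108 TPM in untreated libraries (-1.46, SE 0.145, adjusted p = 0.0124). Both genes were separated between the groups, with the 3 h libraries labelled knockout lowest. Aspm, a protein of the spindle poles whose human counterpart is mutated in microcephaly, stood at 6.61, 8.63, 8.63 and 9.13 TPM at 3 h, against 19.3, 26.2, 19.2 and 26.2 TPM in untreated libraries (-1.35, adjusted p = 0.00692). Ect2, the exchange factor that starts the cleavage furrow, stood at 19.8, 37.0, 24.4 and 36.7 TPM at 3 h, against 41.1, 77.2, 44.5 and 70.6 TPM in untreated libraries (-0.96, adjusted p = 0.0124). Arhgef39, a further exchange factor, had the second largest log2 fall among the mitotic genes at 2.10, 2.23, 2.98 and 2.67 TPM at 3 h, against 9.26, 11.0, 8.79 and 10.7 TPM in untreated libraries (-1.65). Depdc1b (-1.17), Depdc1a (-0.96), Ckap2l (-1.28), Sapcd2 (-1.50), Tacc3 (-0.64) and Kpna2 (-1.0), an importin that carries spindle factors, also fell, with adjusted p values between 0.0146 and 0.035.

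Hmmr, a spindle protein and hyaluronan receptor, was the exception in the direction of its label difference. It stood at 21.9, 27.8, 15.5 and 20.6 TPM at 3 h, against 41.7, 59.2, 45.2 and 59.7 TPM in untreated libraries (-1.24, SE 0.124, adjusted p = 0.0124). Its change was -0.98 under the knockout label and -1.49 under the wild type label, a difference of 0.51 (adjusted p = 0.0238).

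The APC/C is the ubiquitin ligase that ends mitosis, and 3 of 13 genes of its list fell, with 9 lower in all 4 pairs and a median log2 change of -0.54. Ube2c, its ubiquitin-conjugating enzyme, stood at 193, 232, 207 and 253 TPM at 3 h, against 298, 397, 312 and 375 TPM in untreated libraries (-0.64, SE 0.0679, adjusted p = 0.0149). Ube2s, which extends the ubiquitin chains, stood at 246, 398, 275 and 506 TPM at 3 h, against 381, 729.8, 487 and 718 TPM in untreated libraries (-0.71, adjusted p = 0.0205). The groups overlap for Ube2s, and libraries numbered 2 were higher at both times. Fzr1, the activator CDH1, stood at 26.9, 36.3, 45.7 and 53.8 TPM at 3 h, against 70.2, 88.7, 70.4 and 95.4 TPM in untreated libraries (-1.01, adjusted p = 0.0351).

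The centromere and kinetochore carry the attachment of chromosomes to the spindle. Of 22 centromere and kinetochore genes 1 fell and 13 were lower in all 4 pairs, with a median log2 change of -0.34. Cenpa, the gene of the centromeric histone CENP-A, lay just outside the threshold at 58.2, 96.2, 59.1 and 73.2 TPM at 3 h, against 90.1, 142, 112 and 157 TPM in untreated libraries (-0.79, adjusted p = 0.0546). Of 14 genes listed under condensin and mitotic chromosome proteins, not all of them for chromosome structure, 0 passed (7 lower at an unadjusted p under 0.05), with a median of -0.25 and 6 lower in all 4 pairs. The 2 with the smallest p were Cdca3 (-0.56, adjusted p = 0.0519) and Cdca2 (-0.85, adjusted p = 0.0562), whose groups did not overlap. Nde1 (-0.85, adjusted p = 0.0515) and Cep89 (-0.69, adjusted p = 0.0519) also lay just outside the threshold.

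Genes of earlier cell cycle steps held no call. Of 31 genes for G1/S and DNA replication 0 passed (4 higher at an unadjusted p under 0.05, as were 1465 of the 15131 genes tested). In all 4 pairs 4 were higher, against 11.3% of all genes, and 0 lower, against 16.7%. The median log2 change was 0.10 (-0.15 under the knockout label and 0.28 under the wild type label). Of the 31 label differences 18 passed, all more negative under the knockout label, against 15.3% of all genes. Rrm2, a subunit of ribonucleotide reductase, stood at 349.8, 428, 351 and 408 TPM at 3 h, against 268, 346, 291 and 378 TPM in untreated libraries (0.27, adjusted p = 0.136). Of 19 tested regulators of the DREAM, E2F and FOXM1 circuit 0 passed (3 higher and 4 lower unadjusted), with a median of 0.06. E2f7, a repressor of the E2F family, stood at 30.9, 38.6, 40.8 and 38.9 TPM at 3 h, against 25.2, 28.7, 26.2 and 28.5 TPM in untreated libraries (0.44, adjusted p = 0.118). E2f1 stood at 29.2, 28.3, 34.4 and 30.7 TPM at 3 h, against 21.4, 23.4, 24.0 and 24.0 TPM in untreated libraries (0.38, adjusted p = 0.121). For both E2F genes the 3 h libraries lay above the untreated ones without passing the test. Of 34 genes of double-strand break signalling and repair 0 passed (3 higher and 1 lower unadjusted), with a median of 0.01.

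**Figure D4:**
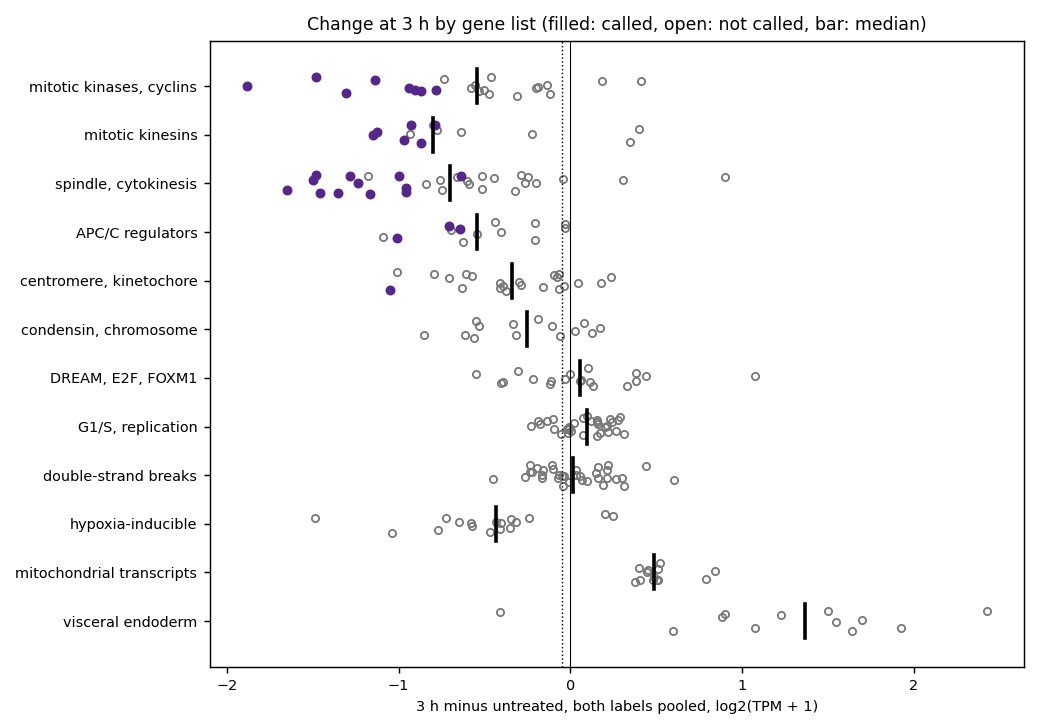
Log2 change at 3 h over both labels for each tested member of 12 gene lists (filled, called; open, not called), with the list median as a bar and the median of all genes, -0.05, as a dotted line. The 30 called genes of the mitotic lists lie left of 0, while the G1/S list centres at 0.10 and the visceral endoderm list at 1.36.

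Outside the mitotic lists 22 of the 52 genes fell, and 20 of these stood in none of the 44 lists used. Pif1, a helicase, had the largest log2 fall of the 52, at 1.26, 1.23, 2.03 and 1.74 TPM at 3 h, against 9.26, 11.8, 9.16 and 12.6 TPM in untreated libraries (-2.19, SE 0.153, adjusted p = 0.00501). H1f0, the linker histone H1.0 that is not tied to replication, stood at 69.3, 63.9, 94.2 and 86.7 TPM at 3 h, against 213, 206, 226 and 218 TPM in untreated libraries (-1.46, SE 0.0926, adjusted p = 0.00494). The groups were widely separated in both genes. H2afx, the gene for the histone variant H2AX that is phosphorylated at DNA breaks, stood at 135, 173, 188 and 190.2 TPM at 3 h, against 290.3, 340.3, 257 and 326 TPM in untreated libraries (-0.82, adjusted p = 0.0372). It was the 1 call among 13 tested genes of the histone list. The libraries were made from polyadenylated RNA, in which most replication histone transcripts are poorly represented. Cenpl, a centromere protein outside the lists, changed by -1.31, Hyls1, a centriole protein, by -1.36, and Reep4, which clears membranes from mitotic chromosomes, by -0.87. Sun2 (-0.82), Arl6ip1 (-0.69), Arhgap19 (-1.06), Prr11 (-1.04), Sap30 (-0.88), Trim59 (-0.96), Rnf157 (-0.94) and Ccdc85c (-1.02) fell too, and so did the gene Gm15452 (-1.59), known by a clone-like name.

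A few of these genes are known from embryonic patterning. Tbx1, a T-box factor of the pharyngeal region, stood at 11.2, 9.68, 10.1 and 8.16 TPM at 3 h, against 22.4, 17.0, 17.6 and 15.8 TPM in untreated libraries (-0.83, SE 0.0958, adjusted p = 0.0205). Cyp26c1, which degrades retinoic acid, stood at 3.06, 6.41, 6.4 and 7.52 TPM at 3 h, against 14.3, 21.5, 14.6 and 20.1 TPM in untreated libraries (-1.48, SE 0.167, adjusted p = 0.0205). Every 3 h library was below every untreated one in both genes. Mest, an imprinted gene and the most abundant of the 52, stood at 791, 1155, 913 and 1259 TPM at 3 h, against 1102, 1642, 1339.8 and 1751 TPM in untreated libraries, the smallest log2 fall of the 52 (-0.50, adjusted p = 0.0245). Nr2f6, an orphan nuclear receptor, changed by -0.87 (adjusted p = 0.0279). Xbp1, a factor of the unfolded protein response, stood at 15.6, 28.0, 22 and 34.3 TPM at 3 h, against 26.8, 54.7, 37.4 and 56.9 TPM in untreated libraries (-0.78, adjusted p = 0.03), and it was the 1 call among 23 tested genes of that response.

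Fv1, a gene of retroviral origin that restricts retroviruses, and Miip lie head to head in the RefSeq table. Their 120 bases before the start span chr4:147868859-147868978 on the plus strand for Fv1 and chr4:147868720-147868839 on the minus strand for Miip. Fv1 stood at 3.10, 3.99, 6.21 and 5.65 TPM at 3 h, against 9.98, 11.8, 13.2 and 12.8 TPM in untreated libraries (-1.20, adjusted p = 0.0205). Miip stood at 5.71, 8.84, 8.36 and 10.6 TPM at 3 h, against 29.3, 20.2, 28.7 and 21.5 TPM in untreated libraries (-1.48, adjusted p = 0.0372). Both fell without overlap between the groups, and whether the quantification separated reads between such neighbours was not tested.

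The size of the shared fall was then compared between the labels. The 52 genes had a median log2 change of -1.20 under the knockout label and -0.86 under the wild type label, and 47 of them fell further under the knockout label. By a label-by-time interaction in limma, 3565 of all genes (23.6%) differed in response, 2321 (15.3%) more negative and 1244 (8.22%) more positive under the knockout label. Of the 52, 16 differed, 15 with the larger fall under the knockout label and 1, Hmmr, with the larger fall under the wild type label. Plk1 changed by -2.20 under the knockout label and -1.56 under the wild type label, a difference of -0.64 (adjusted p = 0.00590). Prc1 differed by -0.68 (adjusted p = 0.00683), Kpna2 by -0.63 (adjusted p = 0.00738), Tpx2 by -0.59 (adjusted p = 0.00929), Kif2c by -0.68 (adjusted p = 0.0102) and Fzr1 by -0.59 (adjusted p = 0.0148). Tbx1 (-0.04), Sun2 (-0.00), Mest (0.02) and Ccnb1 (-0.08) had label differences near 0, which does not show equal responses. The pooled comparison counts a label difference as error, so the rule itself favours genes with like responses. Over all genes the median label difference was -0.157 as deposited and -0.022 with median-of-ratios size factors, and 34.9% of the label differences called were positive as deposited against 56.3% with size factors. Leaving out any 1 of the 8 libraries gave 815 to 1397 more negative and 591 to 951 more positive genes.

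With each label tested on its own in the interaction fit, an alternative chosen after seeing the data, 5943 genes passed under the knockout label (3893 lower, 2050 higher) and 55 under the wild type label (48 lower, 7 higher). Past the threshold under both labels with the same sign in every pair were 37 genes (0.245% of those tested), 36 lower (0.238%) and 1 higher (0.00661%). Of these 37, 34 were among the 52, which is 91.9% of the 37 and 65.4% of the 52. The gene higher under both labels was Trim6, a ubiquitin ligase of the tripartite motif family, at 42.0, 49.3, 10.4 and 10.7 TPM at 3 h, against 5.14, 6.35, 3.05 and 4.76 TPM in untreated libraries. Its rise was 2.79 under the knockout label and 1.26 under the wild type label, with a label difference of 1.53 (adjusted p = 0.00438), and it missed the pooled threshold (2.03, SE 0.305, adjusted p = 0.0560). Between the numbers the responses did not differ past the threshold for any gene by limma, with 197 genes at an unadjusted p under 0.05, 1 of them among the 52. The medians of the 52 were -1.04 in number 1 and -1.0 in number 2. Without the 3 h library labelled knockout 2, limma called 5 number differences, without the untreated library labelled knockout 2 it called 2, and without the 3 h library labelled wild type 2 it called 1.

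No gene rose past the threshold in the pooled fit, but 477 genes (3.15%) lay higher in every 3 h library than in every untreated one. Other fits of the same 8 libraries called shared rises, 8 at a mean TPM of at least 5, 7 with size factors, 3 with quantile normalization, 3 without a trend of the spread and 1 with a pseudocount of 0.1. A fit with a label-by-time term called 952 rises with the same sign in all 4 pairs. That fit tests the mean of the responses under both labels, which a large rise under 1 label can carry. With each label tested on its own, 1 gene was higher past the threshold under both. With all 12 libraries in the fit, which adds residual degrees of freedom, 74 genes (0.489%) rose and 207 (1.37%) fell with the same sign in all 4 pairs. The 74 had a median log2 change of 0.73, and 57 did not overlap between 3 h and untreated. The genes named next are among the 74 and were chosen after their values were seen. Atf7ip2, a chromatin cofactor, stood at 2.72, 3.77, 2.11 and 3.70 TPM at 3 h, against 1.00, 1.52, 0.710 and 1.33 TPM in untreated libraries (0.92, adjusted p = 0.0560 in the 8 libraries and 0.00998 in the 12). Tcf19 stood at 28.6, 40.2, 28.6 and 35.9 TPM at 3 h, against 12.6, 24.5, 18 and 21.6 TPM in untreated libraries (0.79, adjusted p = 0.0750 and 0.0138). In both genes every 3 h library lay above every untreated one. Esco2, which acetylates cohesin in S phase, stood at 21.6, 34.4, 19.3 and 25.0 TPM at 3 h, against 13.5, 15.9, 12.8 and 18.9 TPM in untreated libraries (0.66, adjusted p = 0.0891 and 0.0263). Nfkb2, an NF-kappaB subunit, stood at 8.74, 10.9, 7.26 and 7.96 TPM at 3 h, against 5.02, 6.21, 4.68 and 5.89 TPM in untreated libraries (0.59, adjusted p = 0.1 and 0.0276).

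The libraries taken at 1 h show when the 52 genes were low. For 38 of the 52 all 4 libraries at 1 h lay above the highest 3 h value (3.64% of all genes), and for 9 all 4 lay below the lowest untreated value (6.84% of all genes). The median log2 change of the 52 was -0.15 between untreated and 1 h, against -0.04 over all genes, and -0.88 between 1 h and 3 h, against 0.01 over all genes. These counts and differences share libraries with the comparison that chose the genes for low 3 h values, so they are a description. Plk1 was between 113 and 124 TPM at 1 h, below all untreated libraries and above all 3 h libraries, and Aurka was between 73.4 and 92.6 TPM. H1f0 was between 190.3 and 230.3 TPM at 1 h, around the untreated range. Gm15452 spread from 28.5 to 235 TPM at 1 h.

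**Figure D5:**
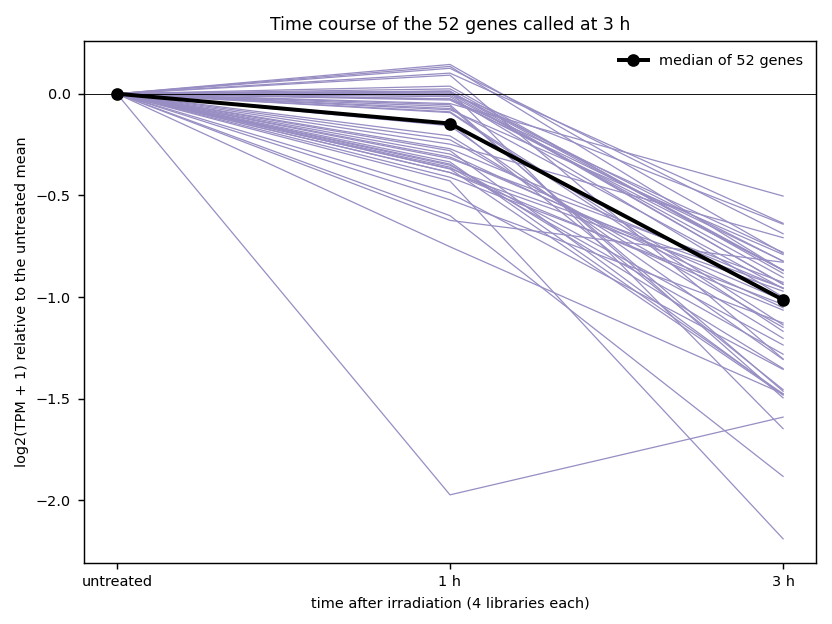
Mean log2(TPM + 1) of each of the 52 genes relative to its untreated mean, at untreated, 1 h and 3 h (4 libraries each, both labels), with the median of the 52 as a thick line. The median stands at -0.15 at 1 h and -1.01 at 3 h, and the 1 gene far below the others at 1 h is Gm15452.

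Lists of hypoxia-inducible, mitochondrial, immediate early and BMP genes held no call, and over all genes 11.3% were higher and 16.7% lower in all 4 pairs. Of 17 tested genes inducible by hypoxia 0 passed (12 lower at an unadjusted p under 0.05), 11 were lower in all 4 pairs, and the median log2 change was -0.44. Slc2a1, a glucose transporter, stood at 125, 211, 177 and 218 TPM at 3 h, against 323, 304, 283 and 316 TPM in untreated libraries (-0.77, adjusted p = 0.0855), and was already between 162 and 175 TPM at 1 h. Of 13 transcripts of the mitochondrial genome 0 passed (12 higher unadjusted) and 10 were higher in all 4 pairs, with a median of 0.48 and summed levels of 65900 to 84200 TPM at 3 h against 45820 to 58430 TPM in untreated libraries. Of 26 tested immediate early genes 0 passed (12 higher and 1 lower unadjusted) and 8 were higher in all 4 pairs (median 0.49). Klf10 stood at 17.3, 17.7, 19.1 and 21.1 TPM at 3 h, against 14.8, 12.3, 11.7 and 11.9 TPM in untreated libraries (0.54, adjusted p = 0.121). Of 12 targets and feedback genes of BMP and TGF-beta signalling 0 passed (2 higher and 6 lower unadjusted) and 7 were lower in all 4 pairs (median -0.34), with Id1 at 75.4, 94.1, 88.6 and 101 TPM at 3 h, against 120.3, 138, 109.5 and 146 TPM in untreated libraries (-0.51, adjusted p = 0.0729). None of the lists of heat shock, NRF2, cholesterol synthesis, interferon, Wnt, Notch, FGF or hedgehog genes held a call.

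Markers of the embryo's tissues were present in all groups. All tested members of the cardiac (12), endothelial (11), neural crest (10), neural progenitor (12) and primitive erythroid (10) lists went without a call in the pooled comparison, and their medians lay between -0.81 for neural progenitors and 0.78 for primitive erythroid cells. The neural progenitor list had 9 of 12 members lower at an unadjusted p under 0.05, as had 2039 of the 15131 genes tested. Its median was -1.67 under the knockout label and -0.04 under the wild type label. Of its 12 label differences 10 passed, all more negative under the knockout label, against 15.3% of all genes tested. The pooled comparison counts such differences as error. Primitive erythroid markers had medians of 1.70 under the knockout label and -0.17 under the wild type label. Of their 10 label differences 7 passed, all more positive under the knockout label, against 8.22% of all genes tested. Visceral endoderm, an extraembryonic layer, had 0 calls among 12 tested markers (11 higher at an unadjusted p under 0.05, as were 1465 of the 15131 genes tested). In all 4 pairs 8 were higher, against 11.3% of all genes tested, and the median was 1.36. The summed level of these markers was 113 to 519.8 TPM at 3 h and 28.2 to 167 TPM in untreated libraries, and no marker was at 0 throughout. Apob, an apolipoprotein of that layer, stood at 7.47, 21.7, 2.80 and 6.31 TPM at 3 h, against 0.730, 5.6, 1.91 and 1.2 TPM in untreated libraries (1.55, adjusted p = 0.130). The part of this layer in the shared fall was not tested. Of 10 white blood cell markers 1 passed the filter, of 10 trophoblast markers 3 did, with Tpbpa and Ctsj at 0 in all 8 libraries, and of 8 decidua markers 5 did, with Prl8a2 at 0 in all 8. Posterior Hox genes, which come on as the embryo ages, summed to 57.2, 56.4, 117 and 129 TPM at 3 h, against 30.4, 39.6, 143 and 112 TPM in untreated libraries, and 0 of 11 tested passed (4 higher and 1 lower unadjusted). The libraries labelled knockout were lower than those labelled wild type at both times.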

How the data were processed

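Polyadenylated RNA of mouse embryos was sequenced, per the labels' protocols. The authors deposited TPM for 53647 gene IDs, whose columns sum to between 999999.1 and 1000000.8, and no counts were used. Per the submitters' processing notes the tools include RSEM (1.3.3), HTSeq (0.12.3), STAR (2.7.3a) and DESeq2 (1.42.1) under R (4.3.3), the build is GRCm39 (mm39), and the step that made the TPM is not given. The strand setting is not given in the sources used here, and transcripts of close paralogs or overlapping genes may not be separable.

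Symbols were matched by ID for 52093 IDs (97.1%) through an annotation of an earlier build. The test covered 15131 genes that reached 1 TPM in 2 or more of the 8 libraries. Linear models of log2(TPM + 1) were made with limma (version 3.58.1, under R 4.3.3) with a trend of the spread and terms for time, label and number, which left 4 residual degrees of freedom. Models with a label-by-time or a number-by-time term left 3. Tests were two-sided with Benjamini-Hochberg adjustment over all genes tested, at a threshold of 0.05. The fit was tested on simulated data. Python 3.11.15 with pandas 2.3.3 and matplotlib 3.10.9 made the summaries and figures.

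The members and the 44 gene lists were chosen with earlier results of these data known. Named genes are Trp53 and the 4 genes of the series title, up to 15 shared genes with the largest change in each direction, up to 4 shared genes per list by p (otherwise 2 members by p), and up to 6 shared genes per direction of the label difference. Other shared genes, those just outside the threshold and those said to be so were named after their values were seen. Libraries of equal number deviated together from their group means, with correlations across genes of 0.428 to 0.596 in the 6 pairs of groups, so the number was kept as a replicate block. Within each group the correlation between numbers 1 and 2 lay between 0.969 and 0.974, at most 0.681% of values were identical, and none was treated as a copy. Alternatives were a pseudocount of 0.1, other filters, scalings, blocks and variance models, all 12 libraries, a 2-fold limit and each library left out in turn. Leaving out both untreated libraries numbered 2, dropping the label term and testing each label on its own were added after seeing the data. A few genes are not reported here.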

Additional observations from a re-analysis of the deposited data

Results flagged for a closer look

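Among the genes named here, 52 responded differently at 3 h under the 2 labels by the interaction test in limma (Benjamini-Hochberg adjusted p under 0.05 over all genes, against 23.6% of all genes tested). Some of the genes were named because they passed this same test, and others after their values were seen. The count is therefore partly fixed by the choice of genes and is a description. All values below are log2 responses under the knockout label minus those under the wild type label.

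Genes named here from the 52 called in the pooled comparison that fell further under the knockout label were Plk1 (-0.6414), Prc1 (-0.6765), Kpna2 (-0.6284), Tpx2 (-0.5949), Kif2c (-0.6761), Fzr1 (-0.5931), Ckap2l (-0.5991), Kif22 (-0.4372), H1f0 (-0.3527), Bub1b (-0.4587), Sap30 (-0.434), Bora (-0.4658), Ccdc85c (-0.5102) and Prr11 (-0.4512). Hmmr fell further under the wild type label (0.5084). Cdca2 and Nde1, mitotic genes outside the threshold, differed by -0.5389 and by -0.5494, Kif18b by 2.049 and Trim6 by 1.532.

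Several p53 targets and genes of the series title responded more positively under the knockout label. Cdkn1a differed by 5.995, Ccng1 by 5.747, Foxo3 by 1.911, Fbxw7 by 1.476, Pidd1 by 2.426 and Ppm1d by 1.177. Stress genes differed in the same direction in Hmox1 (1.66), Hspa1a (2.506) and Dusp1 (0.5925). Cdkn1b, the inhibitor p27, differed the other way (-1.205), and Pcna by -0.3592.

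Other named genes with a more negative response under the knockout label were Hes5 (-2.307), Lfng (-2.213), Neurog2 (-1.694), Meox2 (-1.563), Tfap2b (-1.477), Fgf8 (-0.943), Twist1 (-0.7812), Il17rd (-0.7379), Zic1 (-0.6413) and Id3 (-0.6236). Mesp2 (1.977) and Hoxc8 (1.621) responded more positively. More positive too were Hba-a2 and Alas2 of erythroid cells, Nppa of the heart, Des of muscle, and Eng and Sox18 of the endothelium, with Hba-a2 at 2.384, Alas2 at 2.114, Nppa at 1.036, Des at 0.931, Eng at 0.8858 and Sox18 at 0.7812. The clock genes Ciart (-2.09) and Nr1d1 (0.9936) differed in opposite directions. Sqle, of cholesterol synthesis, differed by -0.8873 and Rpl3, a ribosomal protein gene, by 0.3996. With size factors the median label difference of all genes moved by more than 0.1, as given above, so differences near that size depend on the scaling.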

How the results depend on the processing

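Each sign of the 52 genes was kept in all alternative fits, which the rule of equal signs largely fixes, but their number was not. The counts of higher and lower shared genes, 0 and 52 as reported, were 1 and 52 with a pseudocount of 0.1, 0 and 21 without a filter, 8 and 71 at a mean TPM of at least 5, 7 and 73 with size factors, 3 and 68 with quantile normalization and 3 and 34 without a trend of the spread. They were 0 and 16 with no replicate block, 0 and 15 with a replicate block by label and number, 952 and 1597 with a label-by-time term and the replicate block, and 74 and 207 with all 12 libraries. The fit with a label-by-time term tests the mean of the responses under both labels, which 1 label can carry. A 2-fold limit left 0 and 28, no label term 0 and 32, each label on its own 1 and 36, and leaving out both untreated libraries numbered 2 left 0 and 0. Robust moderation gave 0 and 54. Without a single library the ranges were 0 to 7 and 6 to 23, with the 7 higher genes without the untreated library labelled wild type 1. The label differences, 1244 more positive and 2321 more negative as reported, were 961 and 1343 without a filter, 1537 and 1193 with size factors, 356 and 134 with no replicate block, 941 and 1171 with all 12 libraries and 763 and 462 at a 2-fold limit. Without a single library they were 591 to 951 and 815 to 1397. The number differences were 0 in each direction as reported, and 0 to 4 higher and 0 to 1 lower without a single library. The cause of these shifts was not tested, except that fits without a library, and the fit with all 12, differ in their number of samples by construction. Of 2146 values of the 103 named genes, 1827 kept their side of the threshold, 232 lost and 87 gained a call, and 7 of 923 list medians moved by more than the spread (SD) of that median over the 4 pairs. TPM keep no depth, so the smallest detectable change is unknown.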

Other observations

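Among 14 targets of the glucocorticoid receptor, which responds to stress hormones, limma called 0 in the pooled comparison. At an unadjusted p under 0.05, 5 were higher and 1 lower, beside 1465 and 2039 of the 15131 genes tested. The median log2 change of the list was 0.22. Sgk1, a kinase gene of that list, stood at 41.8, 26.7, 35.5 and 26.1 TPM at 3 h, against 18.9, 15.4, 17.9 and 20.3 TPM in untreated libraries (0.79, adjusted p = 0.0855). Klf15, a transcription factor of the same list, stood at 1.29, 1.76, 2.73 and 2.60 TPM at 3 h, against 5.49, 3.81, 5.6 and 4.5 TPM in untreated libraries (-0.93, adjusted p = 0.0855). The groups did not overlap in either gene, as in 3.15% of all genes tested on the higher side and 4.25% on the lower side. Neither gene passed the test, and both were named for the smallest p in their list.

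Of 15 circadian clock genes limma called 0 (2 higher and 1 lower unadjusted), with a median log2 change of -0.04. Of 10 tested NF-kappaB targets it called 0 (5 higher and 0 lower unadjusted, beside 1465 and 2039 of the 15131 genes tested). In all 4 pairs 4 were higher, against 11.3% of all genes tested, and the median was 0.50. Of 15 tested genes of proneural factors and early neurons limma called 0 (0 higher and 3 lower unadjusted), with a median of -0.50.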
